A study of Mus musculus with 2 samples.

Results

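Skeletal muscle stem cells (MuSCs) rest beneath the sheath of the muscle fibre until injury, and they carry Pax7 when at rest. Myod1 is the myogenic transcription factor that marks their activation, and it is switched on early, often while the cells are still being freed from the tissue by enzymes. The same handling is known to induce immediate-early genes (Egr1, Fos, Junb), the stress regulator Cebpd and the neutrophil chemokines Cxcl1 and Cxcl2, within a short time and in cells that have not begun to divide. The group described here is the set of quiescent-like cells that held Myod1 mRNA.

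Its members were chosen by measured values, and these values are a description and not a finding. A barcode of the 90% library was a member if it held 3000 to 15000 UMIs (unique molecular identifiers, each counted as 1 captured mRNA) and at least 500 genes, no UMI of Rrm2, Top2a, Cdk1, Mki67, Ptprc or Tyrobp, at least 1 UMI summed over the quiescence genes Chrdl2, Calcr, Heyl, Spry1 and Msc, and at least 2 UMIs of Myod1. Of the 3001 barcodes of that table, 1391 held 3000 to 15000 UMIs, 1006 of them passed all steps but the last and are called quiescent-like, and 432 were members. Of the other quiescent-like cells, 67 held 1 Myod1 UMI and 507 held none. The cells with none are the comparison set.

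The mice were Pax7creERT2R26-eYFPfl/fl animals on a C57BL6 background, given tamoxifen at 3 months of age so that cells with Pax7, and their descendants, carried YFP. Hindlimb muscle was either left uninjured or injured with 1.2% barium chloride and taken 72 h later, and YFP+ cells were sorted. Both sources were run together in 1 10x Chromium 3′ capture, which was divided into a 90% library read with Illumina and a 10% library read with Illumina and Nanopore. The tables do not mark which muscle a cell came from, and the number of animals is not given in the sources used here. With 1 capture and no replicates, no test could be run. The 95% intervals below (exact Poisson for UMIs, exact binomial for shares) cover counting error only, unless stated otherwise.

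The 2 short-read tables are not independent. They share 634 barcodes, and all 330 barcodes with at least 1000 UMIs in the 10% table also occur in the 90% table. Among the 126 of these that were quiescent-like in the 10% table, the profile of the same barcode in the other table was the closest of all 330 for each of the 126, with a median correlation of 0.93 across genes against 0.71 between different barcodes. Of the members, 98 have a barcode that occurs in the 10% table, 68 of them with at least 1000 UMIs there. In the comparison set these counts are 94 and 67. Only barcodes with at least 1000 UMIs in the 10% table are called shared below, and 364 members are not shared in this sense. The gene counts, the list medians and a number of genes are therefore given also over the cells that are not shared, and the 10% library is treated as a repeat count of some of the same cells.

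Members were shallow cells. They held between 3021 and 14453 UMIs, with a median of 4855 and quartiles of 3999.5 and 6258, and a median of 1404.5 genes. The comparison set had a median of 4731 UMIs and 1374 genes, so the 2 sets differed little in depth. Activated-like cells, taken as barcodes over 15000 UMIs with at least 2 UMIs of the 4 cell cycle genes of the rule and none of the immune genes, had a median of 47669.5 UMIs and 5395.5 genes (n = 544). Mitochondrial UMIs made up a median of 1.13% in members and 1.14% in the comparison set.

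Myod1, on chromosome 7 (GRCm38.p6, 46376474 to 46379099, plus strand), had a wide range over the quiescent-like cells. Members held a median of 10 Myod1 UMIs, with quartiles of 5 and 19 and a maximum of 69. Just inside the threshold lay 37 cells with 2 UMIs, at a median of 432 CPM (UMIs of a gene in every 1000000 UMIs), and just outside it the 67 cells with 1 UMI, at a median of 210.1 CPM. Over all 1006 quiescent-like cells the mean was 5.77 UMIs with a variance of 97.6. Of the 432 members, 328 held 5 or more UMIs. Of the 499 quiescent-like cells with any Myod1, 171 held 1 to 4. The share of members moves with the minimum chosen, at 49.6% with 1 UMI and 39.3% with 3.

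**Figure D1:**
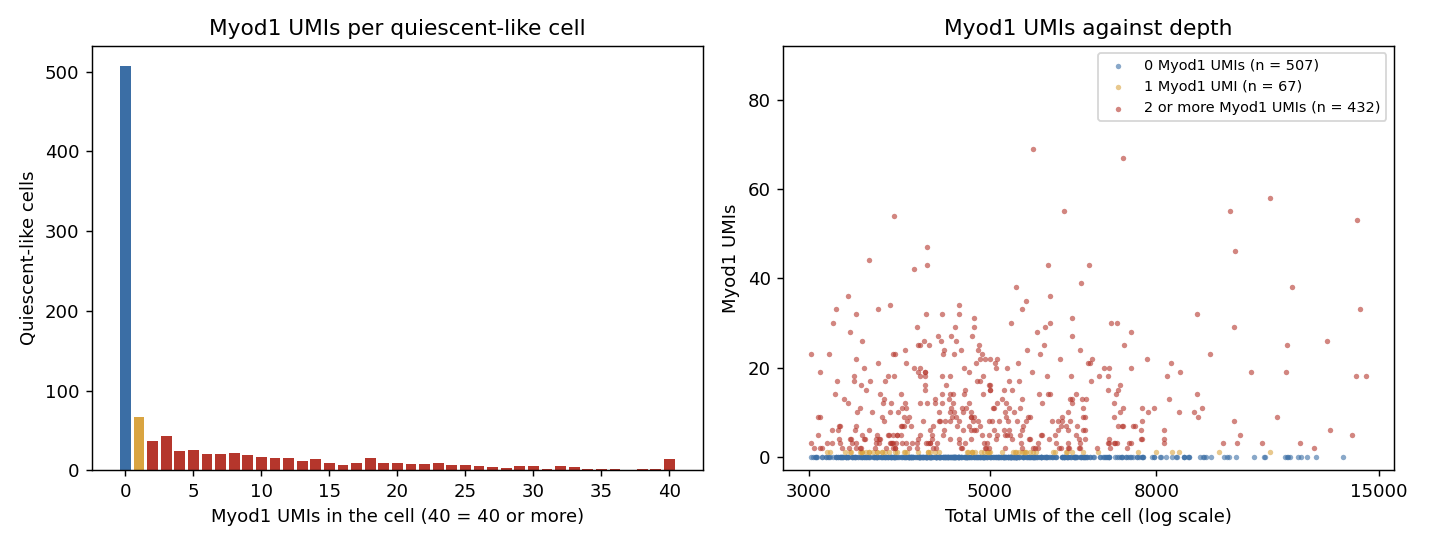
Left, number of quiescent-like cells (y axis) by Myod1 UMIs in the cell (x axis, 40 standing for 40 or more). Right, Myod1 UMIs (y axis) against total UMIs of the cell (x axis, log scale), one point per cell; the 507 cells at 0 and the 432 members cover the same range of depth.

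As a share, 42.9% of quiescent-like cells were members (432 of 1006, interval 39.9 to 46.1%). Summed over members, Myod1 stood at 2454 CPM (interval 2391 to 2518), and in activated-like cells at 225.1 CPM. The level of members is set in part by the rule, so the unselected values are given too. Over all 1006 quiescent-like cells Myod1 stood at 1097 CPM (interval 1069 to 1126) with a median of 0 UMIs a cell. In activated-like cells the median was 7 UMIs and 83.8% of cells held 2 or more, but these cells are far deeper. After thinning to 3000 UMIs a cell, 38.1% of activated-like cells held at least 1 Myod1 UMI (unthinned, 90.1%). Of quiescent-like cells, 37.9% then held 2 or more. Of the 10 barcodes in the same UMI range with at least 2 UMIs of the immune genes, which should lack Myod1, 1 held a single Myod1 UMI and none held 2, which allows a share of up to 30%.

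Long reads counted Myod1 again in the same cDNA as the short reads that the rule used, so these values are no independent support. In the 10% library the same rule found 63 members among 126 quiescent-like cells. These 63 held between 0 and 272 long-read Myod1 UMIs with a median of 42, and 62 of them held at least 1. The 55 cells with no short-read Myod1 UMI held between 0 and 5, with a median of 1, and the 8 cells with 1 short-read UMI held between 0 and 7. Long-read Myod1 stood at 6770 CPM in members and 132 CPM in cells with none. A long-read UMI of Myod1 was present in 58.2% of the latter. Barcodes with under 1000 short-read UMIs carried Myod1 at 1205 CPM of their long-read UMIs. Whether the low values are background was not tested. Over the 63 members the short-read and long-read UMIs had a Spearman correlation of 0.90, a description of counts made on the same cDNA.

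**Figure D2:**
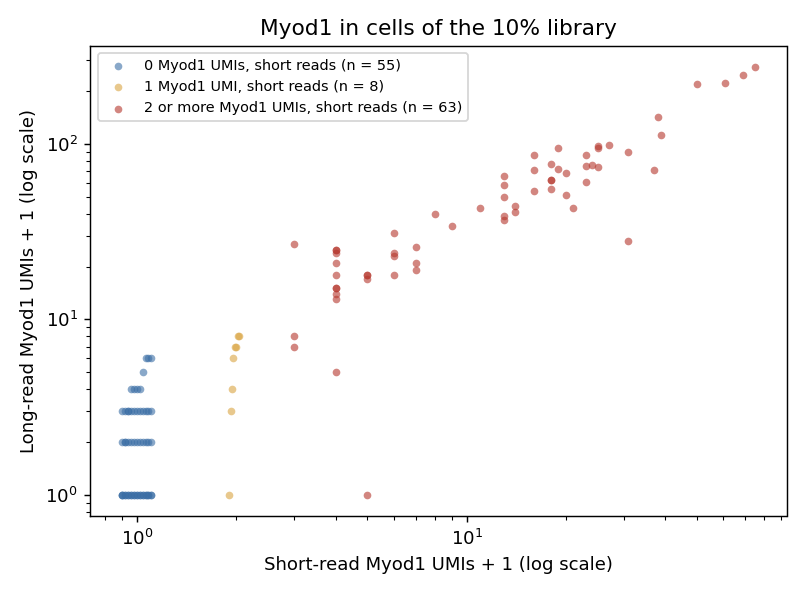
Long-read (y axis) against short-read (x axis) Myod1 UMIs per cell of the 10% library, both plus 1 on log scales, one point per cell. Of the 63 members all but 1 held long-read Myod1 UMIs, and no cell without a short-read UMI held more than 5.

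The share of members was 40.6% in cells of 3000 to 6000 UMIs and 50.2% in cells of 6000 to 15000 UMIs as counted, and did not keep that order after thinning. From the shallowest to the deepest of 6 bins of total UMIs, members made up 42.5%, 40.8%, 37.6%, 50.6%, 44.2% and 56.2% of the quiescent-like cells. The last bin held 32 cells and its interval ran from 37.7 to 73.6%. After each cell was thinned to 3000 UMIs, the shares were 41.7%, 38.2%, 34.0%, 37.4%, 32.6% and 37.5%, and no bin stood above the first. Thinned, 381 of the 432 members kept 2 or more Myod1 UMIs, 37 kept 1 and 14 lost all.

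Read as CPM, Myod1 was lower in the deeper cells. Within members it stood at 3083 CPM in cells of 3000 to 4000 UMIs, 1831 CPM at 6000 to 8000 and 1562 CPM at 10000 to 15000. Part of this is set by the rule, because 2 UMIs are a larger share of a shallow cell, so the same was read over all quiescent-like cells. There Myod1 stood at 1337, 1275, 989, 936, 886 and 902 CPM from the shallowest to the deepest bin. Across the 432 members after thinning, Myod1 UMIs and total depth had a Spearman correlation of -0.23, which the rule also sets in part.

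The early response of the members was strong against activated-like cells and of about the same size as in quiescent-like cells without Myod1. Egr1, an immediate-early zinc finger factor, stood at 822.7 CPM in members (interval 786 to 860), 807.9 CPM in the comparison set (774 to 843) and 15.0 CPM in activated-like cells. Cebpd, a stress-responsive bZIP factor on chromosome 16 (15887286 to 15891031, plus strand), stood at 950.6 CPM in members (912 to 991), 1065 CPM in the comparison set (1026 to 1105) and 7.22 CPM in activated-like cells. Cxcl2 stood at 716.6 CPM in members (683 to 752), 680.4 CPM in the comparison set (649 to 713) and 9.08 CPM in activated-like cells. The 4 genes that name the group thus did not divide it from its neighbours apart from Myod1, which the rule used.

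Seen cell by cell the picture was the same. Egr1 had a UMI in 79.6% of members and 80.1% of the comparison set, and Cebpd in 80.6% and 82.4%. Activated-like cells are far deeper, so shares were also taken at 3000 UMIs a cell, where Egr1 had a UMI in 71.8% of members, 72.4% of the comparison set and 4.41% of activated-like cells (unthinned, 30.3% of the last). All 3 of Egr1, Cebpd and Cxcl2 were found together in 64 members (14.8%) and 67 cells of the comparison set (13.2%), and none of the 3 in 21 members (4.86%) and 30 cells of the comparison set (5.92%). A cell with Myod1 and none of these 3 genes was therefore uncommon at this depth, and so was one without Myod1 and without the 3. At least 1 UMI of the immediate-early list as a whole was found in all 432 members and in 504 of the 507 cells of the comparison set.

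Cxcl2 and its neighbour Cxcl1 behaved unlike Egr1 and Cebpd. Both encode chemokines that draw neutrophils, and they lie 10756 bases apart on chromosome 5 (GRCm38.p6, Cxcl1 at 90891241 to 90893115 and Cxcl2 at 90903871 to 90905938, both on the plus strand). The RefSeq promoter windows on GRCm38.p6, 250 bases before the start site to 50 after it, are shown because the cells with Cxcl2 also held more Cxcl1 than other cells, and each window holds a match to the NF-kB motif, in capitals.
Cxcl1, chr5:90890995-90891294, plus strand: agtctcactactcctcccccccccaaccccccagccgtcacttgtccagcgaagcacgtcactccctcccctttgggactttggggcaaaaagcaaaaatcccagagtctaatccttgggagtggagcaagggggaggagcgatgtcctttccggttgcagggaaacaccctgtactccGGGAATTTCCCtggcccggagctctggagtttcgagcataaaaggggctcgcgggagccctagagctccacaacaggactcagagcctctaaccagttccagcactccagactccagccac
Cxcl2, chr5:90903649-90903948, plus strand: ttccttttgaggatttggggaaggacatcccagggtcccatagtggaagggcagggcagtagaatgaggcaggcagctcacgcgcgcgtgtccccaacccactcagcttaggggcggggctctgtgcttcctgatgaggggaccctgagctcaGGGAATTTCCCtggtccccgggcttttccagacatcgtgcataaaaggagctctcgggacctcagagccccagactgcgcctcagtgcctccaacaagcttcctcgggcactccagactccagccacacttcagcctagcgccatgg

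The capitals are the same 11 bases in both windows, beginning 71 bases before the start site in Cxcl1 and 97 bases before it in Cxcl2, and they hold 2 overlapping matches, 1 on each strand. Of the 19 chemokine and NF-kB genes with a window in the table, 11 hold the motif on either strand (57.9%), against 5.14% of the 27025 genes in it. The AP-1 motif TGANTCA was in 5 of the 19 (26.3%, against 8.97%), and the CArG box and the CRE TGACGTCA in none (against 1.81% and 2.03%). Of the immediate-early list, 22 of 30 genes had a window, with the NF-kB motif in 6, the CArG box in 2, and the CRE and AP-1 motifs in 1 each. Of 17 feedback genes with a window, none held the NF-kB motif and 4 the CRE (23.5%). The chemokine list was put together from genes known to answer to NF-kB, so its share of that motif is no independent evidence. A match describes letters and not binding. Myod1, Egr1 and Cebpd have no entry in the table.

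Only 85 of the 432 members held a Cxcl2 UMI (19.7%), and the 44 members with the most Cxcl2 held 94.99% of its UMIs, up to 123 in 1 cell. In the comparison set 90 of 507 cells held one (17.8%), up to 267 in 1 cell. Cxcl1 was wider spread, with a UMI in 283 members (65.5%) at 3141 CPM and in 311 cells of the comparison set (61.3%) at 3317 CPM. Among the 85 members with Cxcl2, 74 also held Cxcl1 and their median was 21 Cxcl1 UMIs. Among the 347 members without Cxcl2, 209 held Cxcl1 and the median was 1. The members with Cxcl2 were also the deeper ones, at a median of 5715 UMIs against 4747, and the part of depth in this was not tested; in the comparison set, where the depths were 4765 and 4724, the Cxcl1 medians were 29.5 and 1.

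Because so few cells carry it, the ratio of Cxcl2 between the sets moved with single cells. Its log2 ratio between members and the comparison set was 0.07 (after adding 10 CPM to each, as for all log2 ratios here), -0.33 without the shared barcodes and 0.20 without the barcode highest in it in each set. By depth, Cxcl2 in members ranged from 47.0 CPM in the bin of 8000 to 10000 UMIs to 1389 CPM in the deepest bin. In the 10% library, where 63 members stood against 55 cells, the log2 ratio was 3.89. Cxcl2 was also present in 7 of the 10 barcodes with immune genes.

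Across the genome, few genes differed by 1.5-fold or more between members and the comparison set when all cells were used and 10 CPM was added. Of 5968 genes with at least 50 UMIs over both sets, rule genes left out, 66 stood at least 1.5-fold higher in members (1.11%) and 87 at least 1.5-fold lower (1.46%), and the median log2 ratio was 0.03. Over the cells that are not shared, 51 of the 66 and 71 of the 87 stayed past 1.5-fold. The counts for gene groups are read against these percentages. Here and below, counts past 1.5-fold use the ratio after adding 10 CPM, while a ratio printed with an interval is taken without it and can be larger for genes with few UMIs.

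The immediate-early transcription factors had the same median ratio as all genes. None of the 27 measured was 1.5-fold higher and 1 was 1.5-fold lower, with a median log2 ratio of 0.03. The list went both ways, with 14 genes above a ratio of 1 and 13 below, at log2 ratios from -0.79 to 0.30. Fos, which pairs with Jun factors, was the lower one at 163.4 CPM against 289.8 CPM, a ratio of 0.564 (interval 0.497 to 0.639). It was found in nearly the same share of cells, 34.3% and 36.5%, so the gap lay in cells with many UMIs, up to 150 in 1 cell of the comparison set, and without the highest barcode of each set its log2 ratio was -0.60 in place of -0.79. Junb stood at 1023 and 1111 CPM, Jund at 533.5 and 601.7 CPM, and Atf3, a stress-induced repressor, at 103.1 and 148.5 CPM. In the 10% library the log2 ratio of Fos was 0.51, the opposite way.

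Against activated-like cells the same list stood far apart. Of 29 genes of the list measured in that comparison, 24 were at least 1.5-fold higher in the Myod1-positive cells and 1 was lower, where 15.3% of all 11732 genes were higher and 25.2% lower. The list summed to 7722 CPM in members, 7956 CPM in the comparison set and 1008 CPM in activated-like cells. Depth and cell state cannot be told apart in this comparison, since the activated-like cells were defined by high UMI totals.

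Summed over the list, immediate-early mRNA was also lower in deeper cells, with Myod1 or without, but the single genes were not all so. The immediate-early list summed to 8955 CPM in members of 3000 to 4000 UMIs, 7282 CPM at 6000 to 8000 and 6005 CPM at 10000 to 15000. In the comparison set the same bins gave 8352, 7633 and 5819 CPM. Members were below the comparison set in 4 of the 6 bins. In members, Cebpd stood at 1124 CPM in the shallowest bin and 432.5 CPM in the deepest and Egr1 at 905.7 and 746.6 CPM, but Cxcl2 at 295.8 and 1389 CPM. After thinning, the Spearman correlation with depth over the 432 members was -0.19 for the list, -0.12 for Cebpd, 0.02 for Egr1 and 0.12 for Cxcl2. Egr1 was higher in members in 4 of the 6 bins, Cebpd in 1, Cxcl2 in 2 and Fos in 1.

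**Figure D3:**
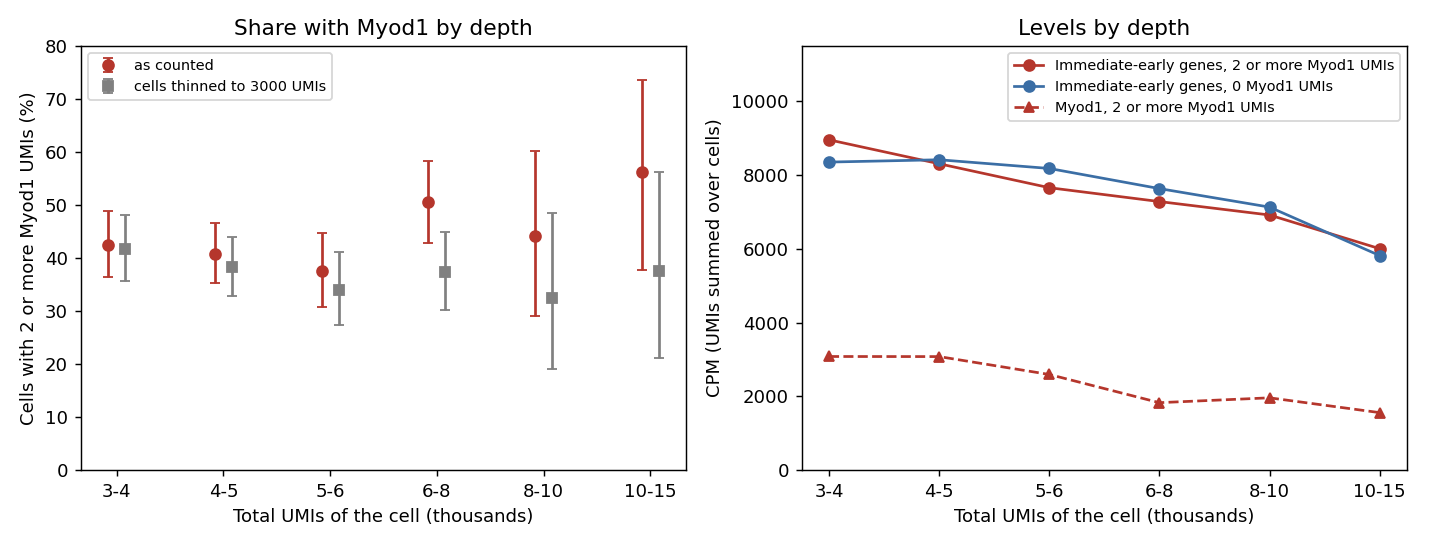
Left, share of quiescent-like cells with 2 or more Myod1 UMIs (y axis, %) by total UMIs of the cell (x axis, in units of 1000), as counted and after thinning to 3000 UMIs; bars are exact 95% intervals. Right, CPM of the summed immediate-early list in members and in cells without Myod1, and of Myod1 in members; all 3 lines are lower in the deepest bin than in the shallowest.

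Growth factor feedback genes had a median ratio above that of all genes. Of 17 measured, 2 were at least 1.5-fold higher and none lower, 12 lay above the median of all genes, and their median log2 ratio was 0.17. Errfi1, a feedback inhibitor of the EGF receptor, was the most abundant, at 3185 CPM against 2472 CPM (ratio 1.29, interval 1.25 to 1.33). It had a UMI in 97.9% and 92.3% of cells, was higher in 5 of 6 depth bins, and stood at 75.3 CPM in activated-like cells. Spry2, an inhibitor of receptor tyrosine kinase signals, stood at 181 CPM against 106.1 CPM (1.71, interval 1.46 to 1.99), and Hbegf, a ligand of the EGF receptor, at 136 CPM against 82.5 CPM (1.65, interval 1.38 to 1.97). Of the other abundant genes, Sgk1 stood at 352.5 and 290.2 CPM, Gem at 506.5 and 482.6 CPM, and Phlda1 at 268.2 and 309.2 CPM (0.867, interval 0.780 to 0.964), and Dusp1 and Lif had log2 ratios of -0.39 and -0.44. Without the shared barcodes the log2 ratios of Errfi1, Spry2 and Hbegf were 0.39, 0.78 and 0.58.

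The chemokine and NF-kB list had a median just below that of all genes, and single genes went both ways. Of 18 measured, 1 was at least 1.5-fold higher and 2 lower, 6 lay above the median of all genes, and the median log2 ratio was -0.05, and -0.28 in the 10% library. Csf1, the growth factor of macrophages, stood at 52.6 CPM in members (interval 43.7 to 62.8) and 24.8 CPM in the comparison set (19.1 to 31.6), and was higher in all 6 depth bins. Ccl2, which attracts monocytes, stood at 94.1 CPM (82.1 to 107) and 219.1 CPM (202 to 238), with a UMI in 9.72% and 15.4% of cells, and was lower in all 6 bins. Cxcl10, an interferon-induced chemokine, stood at 8.98 and 33.6 CPM. Nfkbia, the inhibitor of NF-kB, stood at 510.8 and 612.8 CPM.

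Ribosome biogenesis genes, by contrast, all leaned the same way by a small amount. None of the 19 measured passed 1.5-fold after adding 10 CPM, and all 19 had a ratio above 1, where 55.6% of all genes did, and the median log2 ratio was 0.18. Ncl, the nucleolar protein nucleolin, stood at 457.8 CPM against 354.3 CPM (1.29, interval 1.18 to 1.41) and was higher in all 6 depth bins. Npm1 stood at 572 and 564.3 CPM, and Mybbp1a at 29.5 and 17.6 CPM (1.68 without the added CPM). Within members the list summed to 2728 CPM in cells with 2 to 4 Myod1 UMIs, 2793 CPM with 5 to 9, 2957 CPM with 10 to 19 and 3083 CPM with 20 or more, beside 2520 CPM in cells with none. The last 3 of these groups had median depths of 4899, 4869 and 4912 UMIs.

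All 11 metallothionein and redox genes measured lay above a ratio of 1, none past 1.5-fold after adding 10 CPM, with a median log2 ratio of 0.20. Hmox1, which breaks down heme, stood at 929.6 CPM against 725 CPM, Srxn1, which repairs peroxiredoxins, at 341.8 CPM against 247.8 CPM, and Mt1 at 8525 CPM against 7428 CPM. Of the p53 and integrated stress response list, 13 were measured, 9 above a ratio of 1 and 4 below, with a median log2 ratio of 0.23. None was 1.5-fold higher after adding 10 CPM, and Ddit4, an mTOR inhibitor, was the 1 lower at 35.5 CPM against 61.5 CPM. Cdkn1a, the cell cycle inhibitor p21, stood at 1716 CPM against 1338 CPM (1.28, interval 1.23 to 1.34) and was higher in all 6 bins, and Chac1, a target of Atf4, stood at 101 CPM against 64.9 CPM (1.56 without the added CPM).

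Heat shock genes had no common shift, with a median log2 ratio of 0.00 over 19 measured, 1 higher and 2 lower by 1.5-fold. Hspa1a, the inducible HSP70, was the farthest, at 83 CPM against 374.2 CPM, and lay in few cells. It had a UMI in 42 members, up to 60 in 1 cell, and in 83 cells of the comparison set, up to 253 in 1 cell. In the 10% library its log2 ratio was 0.32, against -2.05 here. The chaperone Hspa5 of the endoplasmic reticulum stood at 2240 CPM against 1917 CPM and was higher in all 6 bins. Of 13 genes for mRNA decay and translation brakes, none passed 1.5-fold, with a median log2 ratio of 0.07, and Gadd45a stood at 622.5 CPM against 508.2 CPM.

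**Figure D4:**
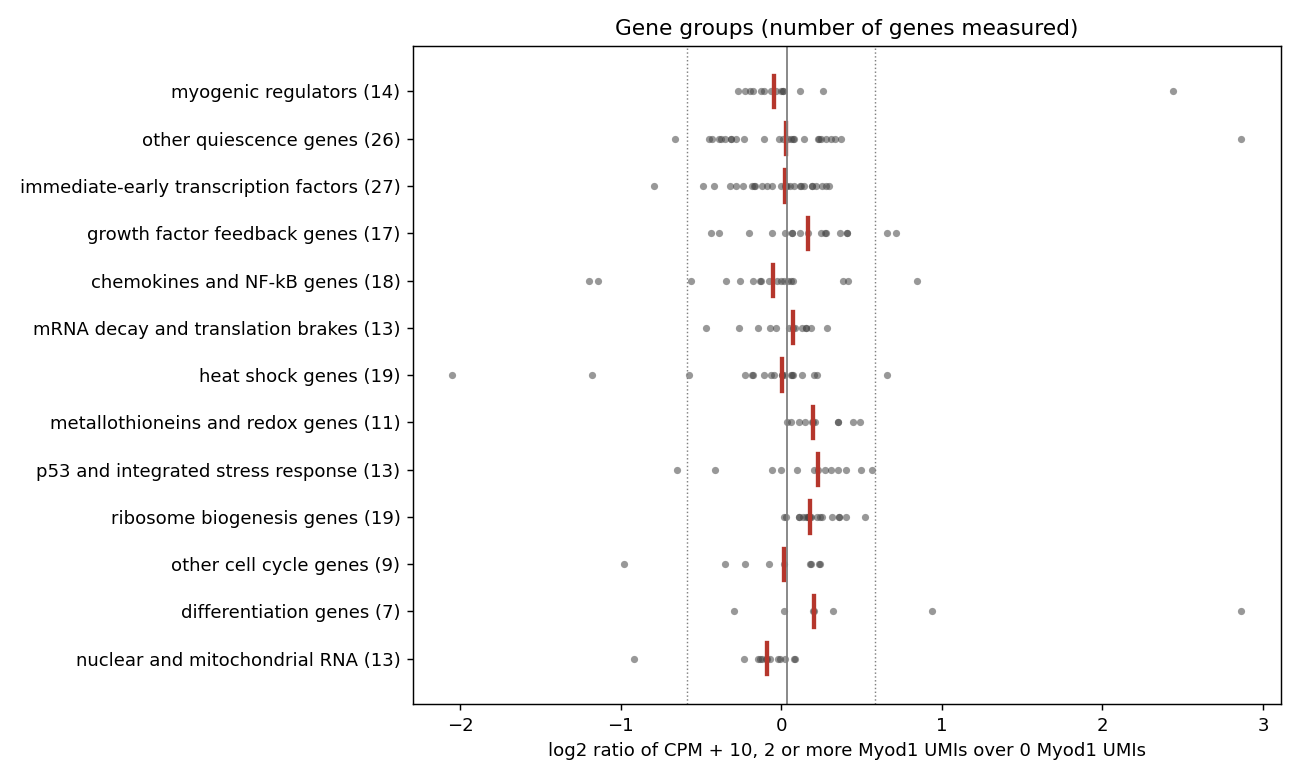
Log2 ratio (x axis) of each measured gene between members and quiescent-like cells without Myod1, by gene group (rows, number measured in brackets); one point per gene, red bars are group medians, the solid line is the median of all genes and dotted lines are 1.5-fold. The immediate-early median lies on the line of all genes, and the redox and ribosome biogenesis points all lie above 0.

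The remaining lists had median log2 ratios of 0.02 for other cell cycle genes (9 measured), 0.21 for differentiation genes (7 measured) and -0.09 for nuclear and mitochondrial RNA (13 measured). Over the 364 members and 440 cells of the comparison set that are not shared, the median log2 ratios of the same measured genes were 0.06 for immediate-early, -0.08 for chemokine and NF-kB, 0.21 for feedback, 0.18 for ribosome biogenesis, 0.16 for redox, 0.29 for p53 and integrated stress, -0.07 for heat shock, 0.11 for mRNA decay and 0.04 for quiescence genes. Single genes moved more. Egr1 was at 0.09, Cebpd at -0.20, Fos at -0.91, Ccl2 at -0.82, Csf1 at 1.01, Ncl at 0.45 and Cdkn1a at 0.36 on the log2 scale. Hspa1a was at -2.74 in place of -2.05, Srxn1 at 0.28 in place of 0.45, Myf5 at -0.13 in place of -0.27, Mest at -0.87 in place of -1.39 and Xist at -0.46 in place of -0.92.

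The quiescence genes that the rule did not use were read beside the name of the group. Of 28 measured against activated-like cells, 20 were at least 1.5-fold higher in members and 2 lower, where 15.3% of all genes in that comparison were higher and 25.2% lower. Bmp4 stood at 57.3 CPM in members, 58.0 CPM in the comparison set and 1.79 CPM in activated-like cells, and the Notch receptor Notch3 at 31.2, 43.9 and 6.66 CPM. Pax7 stood at 18.4, 22.5 and 7.41 CPM and was seen in 35 members, which is few at this depth. Cdh15 and Itga7, surface proteins of both resting and active MuSCs, were lower in members than in activated-like cells, at 33.4 and 56.8 CPM for Cdh15. Against the comparison set, 26 of the list were measured, 1 was higher (Cdkn1c) and 1 lower (Cd34, 13.7 CPM against 27.5 CPM), with a median log2 ratio of 0.03. By these genes the members stood with the quiescent-like cells, which passed the same rule apart from Myod1. Activated-like cells were chosen for cell cycle UMIs and high UMI totals. The rule, depth and cell state therefore cannot be told apart here, and the name of the group was not tested.

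Of 14 other myogenic regulators measured, 1 was at least 1.5-fold higher in members (Myog) and none lower, with a median log2 ratio of -0.05. Myf5, the related factor present in many resting MuSCs, stood at 272.5 CPM in members and 331 CPM in the comparison set (ratio 0.823, interval 0.742 to 0.913). In the 10% library its log2 ratio was -0.99. In members with 2 to 4, 5 to 9, 10 to 19 and 20 or more Myod1 UMIs, Myf5 stood at 404.6, 207.9, 261.9 and 225.5 CPM. Id3, which blocks the partners of Myod1, stood at 1025 and 1071 CPM. Of the genes in the rule, Msc, itself a repressor of Myod1 activity, stood at 1063 CPM in members and 855.2 CPM in the comparison set, and Chrdl2 at 250.3 and 277.2 CPM.

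A few members went against the name. Myog, the factor of terminal differentiation, had UMIs in 8 members, 108 in all with 70 in 1 cell, and in 1 cell of the comparison set with a single UMI. These 8 cells held 397 of the 452 Cdkn1c UMIs of all members, and without them Cdkn1c, the cell cycle inhibitor p57, stood at 24.4 CPM in place of 193.4 CPM. They were deeper, with a median of 9883.5 UMIs, and held a median of 16.5 Myod1 UMIs against 10 in the other members. Their immediate-early sum was 7721 CPM against 7722 CPM in the others. The log2 ratio of Acta1, skeletal actin, was 0.94 with them and 0.29 without cells with Myog.

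Of the 12 genes highest in members and in the same direction in the 10% library, Cdkn1c and Acta1 owed their place to the cells above. Neu2, a sialidase of the cytosol, stood at 157 CPM in members (interval 141 to 174) and 71.4 CPM in the comparison set (61.5 to 82.4), with 0.484 CPM in activated-like cells, and was seen in 109 and 62 cells. Tmem243 stood at 59.9 and 29.8 CPM, Tuba1c, an alpha-tubulin, at 50.5 and 24.4 CPM, and Sox9 at 68.0 and 37.0 CPM. Pthlh stood at 65.0 and 36.3 CPM, but in few cells of either set. It had a UMI in 21 members and 25 cells of the comparison set, up to 36 and 24 in 1 cell. Its log2 ratio was 0.70, and 0.48 without cells with Myog. The others of the 12 highest were Csf1, Spry2, Arl4c, Riok3 and Rwdd4a, at ratios between 1.71 and 2.12.

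Several of the genes lowest in members were abundant in activated-like cells. Tubb5, a beta-tubulin, stood at 46.2 CPM in members, 100.8 CPM in the comparison set and 934.3 CPM in activated-like cells, and was lower in members in all 6 depth bins. Anxa1, an annexin, stood at 13.7, 37.0 and 308.9 CPM, Tsc22d1 at 10.7, 34.0 and 292.5 CPM, Mest at 27.4, 87.8 and 160.9 CPM, and Bst2, an interferon-induced surface protein, at 28.2, 63.0 and 195.2 CPM. Mest had a UMI in 29 members and 38 cells of the comparison set, up to 10 and 57 in 1 cell. Ddah2, which degrades inhibitors of nitric oxide synthase, stood at 38.5, 86.3 and 59.8 CPM. The others were Fabp4, Cxcl10, Ccl2, H1f0, Acat1 and Xist. Xist stood at 21.4, 49.3 and 439.1 CPM, with a UMI in 9 members and 22 cells of the comparison set. The cause of this difference was not tested. Fabp4 had no UMI in members and lay in 3 cells of the comparison set.

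Markers of other cell types were rare in members for 5 of the 8 lists and present for the fibro-adipogenic, smooth muscle and myofibre lists, whose genes had a UMI in 316, 125 and 86 members (393, 172 and 83 cells of the comparison set). The endothelial list summed to 1.28 CPM in members (2 cells, 6 of 8 genes at 0) and 18.3 CPM in the comparison set (10 cells, up to 20 UMIs in 1 cell). Immune genes summed to 4.28 and 6.49 CPM, with 9 of 11 genes at 0 in members, and red blood cell genes to 0 and 0.764 CPM. The rule had removed barcodes with a UMI of Ptprc or Tyrobp from both sets, so low immune values were set in part beforehand. Of the fibro-adipogenic list, Pdgfra and Lum were at 0, while Col3a1 stood at 225.9 and 250.5 CPM and Gsn at 299 and 363.1 CPM. Smooth muscle genes summed to 150 and 178 CPM, with Myh11 at 0 and Tagln at 52.2 and 103.5 CPM. Myofibre genes summed to 110 and 65.3 CPM, Schwann cell genes to 5.99 and 6.49 CPM and tenocyte genes to 2.99 and 2.67 CPM. Their part in the ratios above was not tested, apart from the count of genes without the cells that held any of 5 endothelial genes, which was 71 higher and 77 lower.

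Within members the amount of Myod1 went with little of this response. At 3000 UMIs a cell, its Spearman correlation over the 432 members was 0.04 with Egr1, -0.04 with Cebpd, 0.09 with Cxcl2, 0.00 with the immediate-early sum, 0.10 with the feedback sum and 0.12 with the ribosome biogenesis sum. In cells with 2 to 4, 5 to 9, 10 to 19 and 20 or more Myod1 UMIs, Egr1 stood at 688.6, 850.7, 937.6 and 791.8 CPM and Cebpd at 1012, 976.4, 1027 and 783.2 CPM. Fos was lower in the 2 groups with more Myod1, at 176.3, 200.9, 150.3 and 129.1 CPM, all below the 289.8 CPM of cells with none. Cell by cell at 3000 UMIs, the Spearman correlation of Fos with Myod1 over the 432 members was -0.004.

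**Figure D5:**
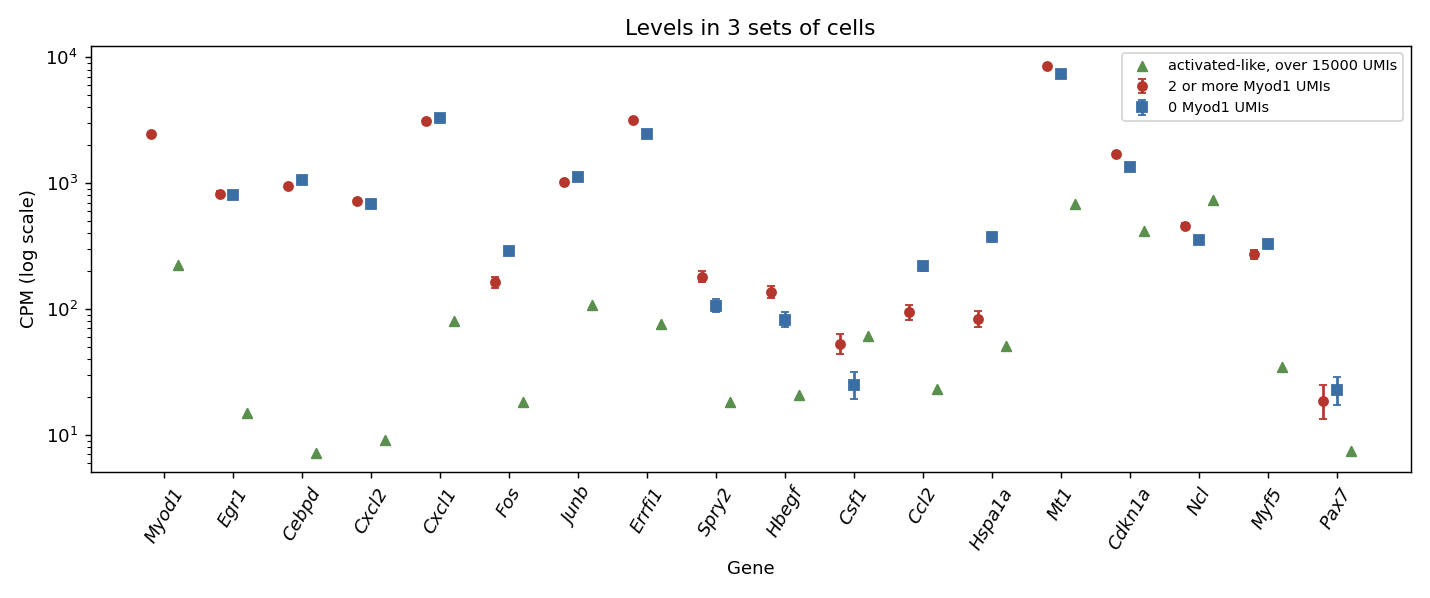
CPM (y axis, log scale) of 18 genes in members, in quiescent-like cells without Myod1 and in activated-like cells; bars on the first 2 are exact 95% Poisson intervals, and Myod1 has no point in the second because the rule set it to 0. Egr1, Cebpd and Cxcl2 lie close together in the first 2 sets and at under 20 CPM in the third.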

How the data were processed

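The study's authors made gene counts from short reads with scPipe and isoform counts from Nanopore reads with FLAMES, on GRCm38.p6. The submitters' processing notes also name Cell Ranger 1.3 and minimap2 2.17. The deposited counts are UMI counts per gene or isoform, without normalization. Of the Ensembl identifiers, 26939 of 26997 (90% library) and 20791 of 20830 (10% library) matched a symbol in the reference table. The tables sum to 39044129 UMIs over 3001 barcodes and 6772259 UMIs over 1991 barcodes. The study's cell numbers are 853 in all and 242 in the 10% aliquot, which leaves 611 if the aliquots share no cell. By UMIs in the 90% table, members ranked from 654 to 2035, and 65 of them lie within the first 853 barcodes.

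UMIs were summed over the cells of a set, expressed as CPM, and compared as the log2 ratio after adding 10 CPM. A gene was counted past 1.5-fold among those with at least 50 UMIs over both sets. There is 1 capture, so no p-values were computed. Cells were thinned without replacement. Scrublet in scanpy 1.11.5 called 3 barcodes doublets, 1 of them a member, which is too few to remove doublets, and they were kept. Genes named are the 4 that name the group, the 12 highest and the 12 lowest with at least 100 UMIs and the same direction in the 10% library, the rule genes, and of each gene list the 4 with the most UMIs and the 2 farthest from 1; Notch3, Bmp4, Pax7, Cdh15, Itga7, Pdgfra, Lum and Myh11 were named after their values were seen. The members and lists were chosen with earlier results of these data known. Functions were tested on simulated data. Alternatives were other depths, thresholds, scalings, filters and subsets of cells; those without shared barcodes, cells with Myog or endothelial genes, or the highest barcode per gene were added after seeing the data. The isoform annotation was not used. Promoter windows are from RefSeq on GRCm38.p6. Python 3.11.15, numpy, scipy 1.17.1 and matplotlib were used.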

Additional observations from a re-analysis of the deposited data

How the results depend on the processing

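No paired analysis was possible because there is 1 capture and no replicate. The share of quiescent-like cells that are members, 42.9%, was 37.9% after thinning to 3000 UMIs, 46.2% weighted to the depth of the 10% library, 50.2% in cells of 6000 to 15000 UMIs, 39.3% with a Myod1 minimum of 3, 49.6% with a minimum of 1 and 50% in the 10% library, and stayed within its interval under the other 8 alternatives. The 66 genes higher in members were of 5968 measured. They became 215 of 3467 in cells of 6000 to 15000 UMIs and 129 of 1735 in the 10% library. With 1 CPM added they became 271 of 5968, and with a gene minimum of 200 UMIs 17 of 2489. The 87 genes lower became 282 of 5968 with 1 CPM added. With a gene minimum of 20 UMIs they became 143 of 8770, and with one of 200 they became 20 of 2489. These counts moved by over 1.5 times; 15 and 16 of the 19 alternatives did not. Fewer genes are measured with a higher minimum or fewer cells. In cells of 6000 to 15000 UMIs and in the 10% library, more genes stood higher although fewer were measured. The causes were not tested. The median log2 ratio of the chemokine list, -0.05, was -0.28 in the 10% library. Under the other 18 it stayed within -0.26 to 0.06, an interval taken from the spread of the list's genes and not from counting error. The median log2 ratio of the immediate-early list stayed between -0.16 and 0.07 under all 19, a range that spans 0. The upper quartile of the members' depth is 6258 UMIs, which limits what can be said of genes with few UMIs.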

Other observations

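Cells with 1 Myod1 UMI, left out of the comparison, had the highest summed chemokine level of the quiescent-like cells grouped by Myod1 UMIs. Their chemokine and NF-kB list summed to 8043 CPM over 67 cells, beside 5848 CPM in cells with none and 5439 CPM in members. Cxcl1 stood at 4582 CPM, Cxcl2 at 1278 CPM and Ccl2 at 402.9 CPM in them. Their median depth was 4760 UMIs, close to that of the other sets. Their immediate-early list summed to 8052 CPM. Errfi1 stood at 2736 CPM, between the values of cells with none and members.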
